A study of Mus musculus with 4 samples.

Results

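The genes described here are Kmt2a, Kmt2b, Kmt2c and Kmt2d, which encode the MLL family of histone methyltransferases, with Men1, Asxl1, Asxl2 and Kdm6b, which encode proteins that work with them or act on the same chromatin. They were chosen by symbol, and all 8 were found among the 16673 genes of the table. RNA was sequenced from Lin– marrow of mice aged 2 months, a lineage-negative fraction depleted of cells that bear mature blood cell markers. The cKO libraries came from 2 mice with floxed Tet3 alleles and a Tie2 Cre (Tie2+/cre; Tet3F/F), and the control libraries from 2 mice with the floxed alleles and no Cre (Tet3F/F), 1 mouse each; cKO and control name the libraries by their labels throughout. Tie2 (Tek) is expressed in vessels and at the origin of blood, so Cre acts in both lineages, and TET3 oxidises methylated cytosine in DNA. The comparison asks how targeting Tet3 bears on transcripts of these cells.

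MLL enzymes methylate histone H3 at the lysine written H3K4, a mark of active promoters and enhancers. KMT2A and KMT2B act mainly at promoters and CpG islands and bind menin, the product of Men1, and the KMT2A complex maintains Hox gene expression in blood stem cells. KMT2C and KMT2D place the mark mainly at enhancers, in complexes that also hold the H3K27 demethylase KDM6A. ASXL1 and ASXL2 are cofactors of the deubiquitinase BAP1, which removes ubiquitin from histone H2A, and KDM6B removes the Polycomb mark from H3K27. ASXL1, KMT2C and KMT2D are mutated in human myeloid disease, and KMT2A is rearranged in leukaemia.

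Several facts of the libraries touch every result below. The recovered reads summed to 28845037 and 30020188 in the cKO libraries and to 39199593 and 46673855 in the control libraries, and each of the 8 genes had between 1005 and 10040 reads in every library. Tet3 had 6400 and 5084 normalized counts in the cKO libraries and 5056 and 6593 in the control libraries, so the groups overlapped for the targeted gene, and a count over the whole gene does not check a deletion of some of its exons. Xist, the RNA of the inactive X chromosome, had 87442 and 48951 normalized counts in the cKO libraries and 5.54 and 9.57 in the control libraries, and the Y genes Uty and Kdm5d had 0 reads in both cKO libraries, so genotype and sex cannot be told apart. Whether the 2 mice of a group shared a litter or a day is not stated, and p-values measure only the spread between these libraries. An exact permutation test of 2 libraries against 2 cannot give a p below 0.33, so tests here come from limma fitted across all genes.

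None of the 8 genes passed the test. With limma and Benjamini-Hochberg adjustment over 16598 genes the smallest adjusted p among them was 0.76, at a background of 0.0723% of genes called in either direction, 0.0301% higher and 0.0422% lower. Only Kmt2c had an unadjusted p under 0.05 (0.046), as did 1013 of all tested genes. edgeR and DESeq2 on the recovered reads called 0 of the 8 as well, at backgrounds of 0.0723% and 0.675%. Of the 8 log2 fold changes 7 lay above 0, with a median of 0.26, against 8424 of 16598 genes (50.8%) and a median of 0.01 over all tested genes. For 4 genes, Kmt2a, Kmt2c, Kmt2d and Asxl2, both cKO libraries lay above both controls, at a background of 19.2% of tested genes, and for 0 of the 8 did both lie below, at a background of 19.5%. Levels are normalized counts. Fold changes are given as log2, cKO over control, after 1 was added to each count, and so come out too small for genes of low count.

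**Figure D1:**
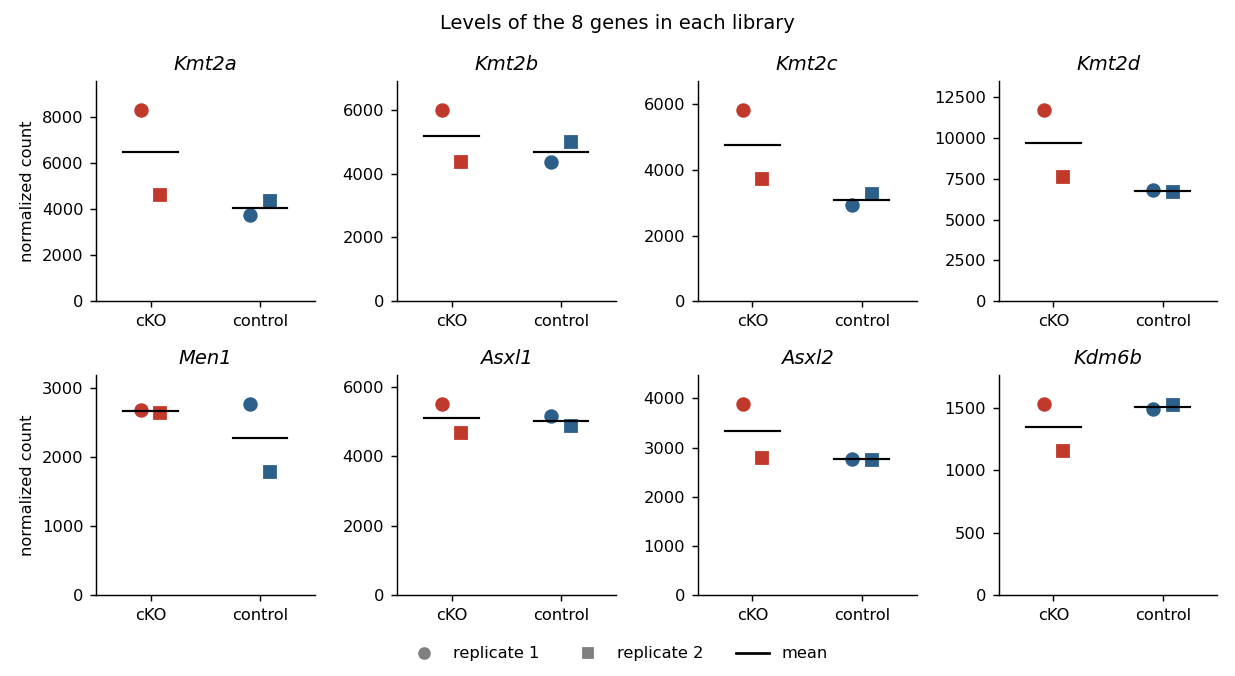
Normalized counts (vertical axes from 0) of the 8 genes in the cKO libraries (red, left) and control (blue, right), with circles for replicate 1, squares for replicate 2 and a bar at each group's mean. In 7 panels cKO replicate 1 is the highest library, and in the Men1 panel control replicate 2 lies below the other 3.

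Among the methyltransferases of promoters, Kmt2a had the largest fold change of the 8 genes and Kmt2b a small one. Kmt2a, the founding MLL gene, had 8300 and 4610 normalized counts in the cKO libraries, against 3727 and 4355 in the control libraries. The gap lay mostly in cKO replicate 1, which was 1.80-fold above cKO replicate 2, while cKO replicate 2 was 5.87% above the higher control. The log2 fold change was 0.62 (SE 0.29, 95% interval -0.05 to 1.29; limma with Benjamini-Hochberg adjusted p = 0.76), and it was 0.19 without cKO replicate 1 and 1.04 without cKO replicate 2.

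Kmt2b, its close relative, had 6001 and 4369 normalized counts in the cKO libraries, against 4354 and 4985 in the control libraries. The groups overlapped, since cKO replicate 2 lay at the level of control replicate 1. The log2 fold change was 0.14 (SE 0.22, 95% interval -0.37 to 0.64; limma with Benjamini-Hochberg adjusted p = 0.89), and without cKO replicate 1 it was -0.09.

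Men1, whose product menin joins KMT2A and KMT2B to chromatin, had 2693 and 2637 normalized counts in the cKO libraries, against 2780 and 1781 in the control libraries. It was the one gene of the 8 whose cKO libraries lay close together (2665 ± 40.0, against 2280 ± 706 for control, SD, n = 2 each), and 1 control library set its difference. The log2 fold change of 0.26 (SE 0.24, 95% interval -0.31 to 0.83; limma with Benjamini-Hochberg adjusted p = 0.80) was -0.06 when control replicate 2 was left out, and 0.58 without control replicate 1.

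Both methyltransferases of enhancers had cKO libraries above the control libraries, with most of the gap in 1 library. Kmt2d had 11720 and 7595 normalized counts in the cKO libraries, against 6837 and 6693 in the control libraries, where the replicates lay close together (6765 ± 101, SD, n = 2). The log2 fold change was 0.48 (SE 0.24, 95% interval -0.08 to 1.04; limma with Benjamini-Hochberg adjusted p = 0.76), and 0.17 without cKO replicate 1. Kmt2c had 5835 and 3713 normalized counts in the cKO libraries, against 2943 and 3257 in the control libraries. Its log2 fold change was 0.59 (SE 0.25, 95% interval 0.01 to 1.16; limma with Benjamini-Hochberg adjusted p = 0.76), and 0.26 without cKO replicate 1. In cKO replicate 2, Kmt2c lay 14.0% and Kmt2d 11.1% above the higher control, against 79.2% and 71.4% in cKO replicate 1.

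The promoters of Kmt2a, Kmt2c and Kmt2d, the methyltransferase genes whose groups did not overlap, are shown with that of Men1, whose groups did, because methylated CG pairs are the substrate of TET3 and the CXXC domains of KMT2A and KMT2B bind unmethylated ones. Each is the stretch of 240 bases from 250 to 11 bases before the RefSeq start, read 5′ to 3′ on the gene's strand in GRCm38.p6, with CG pairs in capitals. They lie at chr9:44881300-44881539 on the minus strand for Kmt2a, at chr5:25498794-25499033 on the minus strand for Kmt2c, at chr15:98871216-98871455 on the minus strand for Kmt2d and at chr19:6334729-6334968 on the plus strand for Men1. No base was scored for methylation in these data. The stretches shown were picked by whether the groups overlapped, and Kmt2b, whose groups overlapped, had none to show. Their CG pairs are thus a description, and a link between CG pairs and the levels was not tested.
Kmt2a: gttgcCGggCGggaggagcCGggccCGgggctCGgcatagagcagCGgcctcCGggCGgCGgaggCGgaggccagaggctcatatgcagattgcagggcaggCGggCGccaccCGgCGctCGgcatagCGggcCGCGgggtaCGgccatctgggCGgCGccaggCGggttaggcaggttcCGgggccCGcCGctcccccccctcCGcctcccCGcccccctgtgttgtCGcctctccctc
Kmt2c: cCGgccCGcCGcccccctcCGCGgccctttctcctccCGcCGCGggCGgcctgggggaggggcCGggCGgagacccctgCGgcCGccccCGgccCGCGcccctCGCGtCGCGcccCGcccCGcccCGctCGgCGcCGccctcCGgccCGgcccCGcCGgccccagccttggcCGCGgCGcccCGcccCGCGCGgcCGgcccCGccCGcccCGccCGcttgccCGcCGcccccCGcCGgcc
Kmt2d: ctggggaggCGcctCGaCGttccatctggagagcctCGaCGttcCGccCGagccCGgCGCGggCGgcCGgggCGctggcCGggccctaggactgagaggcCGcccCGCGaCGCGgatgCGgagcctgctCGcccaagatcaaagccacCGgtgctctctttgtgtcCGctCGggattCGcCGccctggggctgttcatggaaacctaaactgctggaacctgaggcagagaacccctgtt
Men1: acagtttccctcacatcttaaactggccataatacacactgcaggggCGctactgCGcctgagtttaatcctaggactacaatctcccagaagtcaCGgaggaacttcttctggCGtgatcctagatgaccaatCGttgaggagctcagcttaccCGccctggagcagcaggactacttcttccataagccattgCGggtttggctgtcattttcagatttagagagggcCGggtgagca

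The promoters of Kmt2a, Kmt2c and Kmt2d held more CG pairs than that of Men1. Kmt2c had 46 CG pairs, and 0.218% of 27025 RefSeq promoter stretches of the same length, 1 per gene, had as many or more. Kmt2a had 28 (6.25% of promoters with as many or more), Kmt2d 26 (8.0%) and Men1 8 (42.0%), against a median of 5 over all stretches. Of the 8 genes 6 were matched in the RefSeq table by symbol, all but Kmt2b and Kdm6b, and the others among them, Asxl2 and Asxl1, had 30 and 11 CG pairs. An ETS-type motif, CCGGAAGT, was searched on both strands and was found 1 time, in the Asxl2 stretch, where its CG is among the 30 counted, and 2.48% of all stretches hold it. The YY1-type motif GCCATNTT, also searched on both strands, was found 1 time, in the Asxl1 stretch, and 3.76% of all stretches hold it.

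Of the ASXL cofactors, Asxl1 had the smallest fold change of the 8 genes and Asxl2 was high in 1 library. Asxl1 had 5510 and 4652 normalized counts in the cKO libraries, against 5153 and 4857 in the control libraries, and the controls lay between the cKO libraries. Its log2 fold change was 0.02 (SE 0.19, 95% interval -0.42 to 0.45; limma with Benjamini-Hochberg adjusted p = 0.98), so the interval takes in changes of either sign. Asxl2 had 3896 and 2789 normalized counts in the cKO libraries, against 2767 and 2755 in the control libraries. Its groups did not overlap, but cKO replicate 2 lay only 0.809% above the higher control. Its log2 fold change of 0.26 (SE 0.22, 95% interval -0.25 to 0.76; limma with Benjamini-Hochberg adjusted p = 0.79) was 0.01 without cKO replicate 1.

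Kdm6b, an inducible H3K27 demethylase gene, was the one gene of the 8 with a log2 fold change below 0. It had 1532 and 1155 normalized counts in the cKO libraries, against 1488 and 1517 in the control libraries. It was thus near the control level in cKO replicate 1, while cKO replicate 2 lay at -23.9% relative to the higher control. The log2 fold change was -0.18 (SE 0.22, 95% interval -0.69 to 0.33; limma with Benjamini-Hochberg adjusted p = 0.85), and it was -0.38 without cKO replicate 1 and 0.03 without cKO replicate 2. Other inducible genes were set beside it. Of 15 immediate early and dissociation genes such as Fos, Fosb and Zfp36, 14 had a log2 fold change below 0. In 12 of the 15 both cKO libraries lay below both controls, against a background of 19.5% of tested genes. None of the 15 passed the test with limma, 11 had an unadjusted p under 0.05, and their summed level was 9575 to 11151 normalized counts in the cKO libraries and 19015 to 23645 in the control libraries. Their part in the Kdm6b values was not tested.

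**Figure D2:**
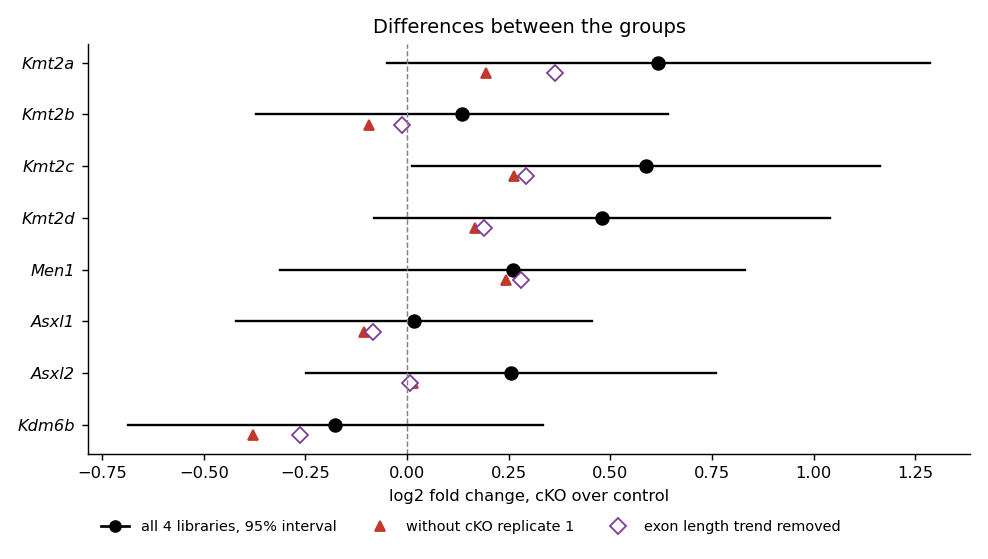
Log2 fold change of each gene, cKO over control (horizontal axis), with black points and 95% interval bars from limma on all 4 libraries, red triangles for the value without cKO replicate 1 and open diamonds for the value after an exon length trend was removed. Both alternatives bring Kmt2a, Kmt2c, Kmt2d and Asxl2 nearer to 0, to 0.19, 0.26, 0.17 and 0.01 without cKO replicate 1.

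Most of the 8 genes were highest in the same library. All 8 were higher in cKO replicate 1 than in cKO replicate 2, from 1.02-fold for Men1 to 1.80-fold for Kmt2a, and 7 of the 8, all but Men1, were highest in cKO replicate 1 of all libraries, Kdm6b by little. Most are long transcripts. The union of their exons ran from 3.84 kb for Men1 to 20.3 kb for Kmt2c, and when tested genes were divided by exon length into 10 classes of about equal number, 5 of the 8 (Kmt2a, Kmt2b, Kmt2c, Kmt2d and Asxl2) fell in the longest, which starts at 9177 bases.

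Levels over all genes varied with length in the same libraries. In cKO replicate 1 the median log2 level relative to each gene's mean over the 4 libraries was 0.21 in the longest class and -0.14 in the second shortest, whereas in control replicate 2 it was -0.15 and 0.16. In cKO replicate 2 the same medians were -0.02 and 0.01, and in control replicate 1 they were -0.04 and 0.03. The median log2 fold change was 0.19 in the longest class, and in 30.7% of its genes both cKO libraries lay above both controls, against 12.9% in the second shortest class. The values of Kmt2a, Kmt2c and Kmt2d in cKO replicate 1, 0.73, 0.62 and 0.55 above their own means, exceeded the class median of 0.21, as did Asxl2 at 0.37 and Kmt2b at 0.30. The class has a median length of 11599 bases, and of these genes all but Kmt2b are longer, at 15.9 to 20.3 kb. The lowest library differed among these genes. Kmt2a, Kmt2c and Kmt2b were lowest in control replicate 1, at -0.42, -0.37 and -0.17, where the median of the longest class was -0.04. Kmt2d and Asxl2 were lowest in control replicate 2, at -0.26 and -0.13, where that median was -0.15.

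**Figure D3:**
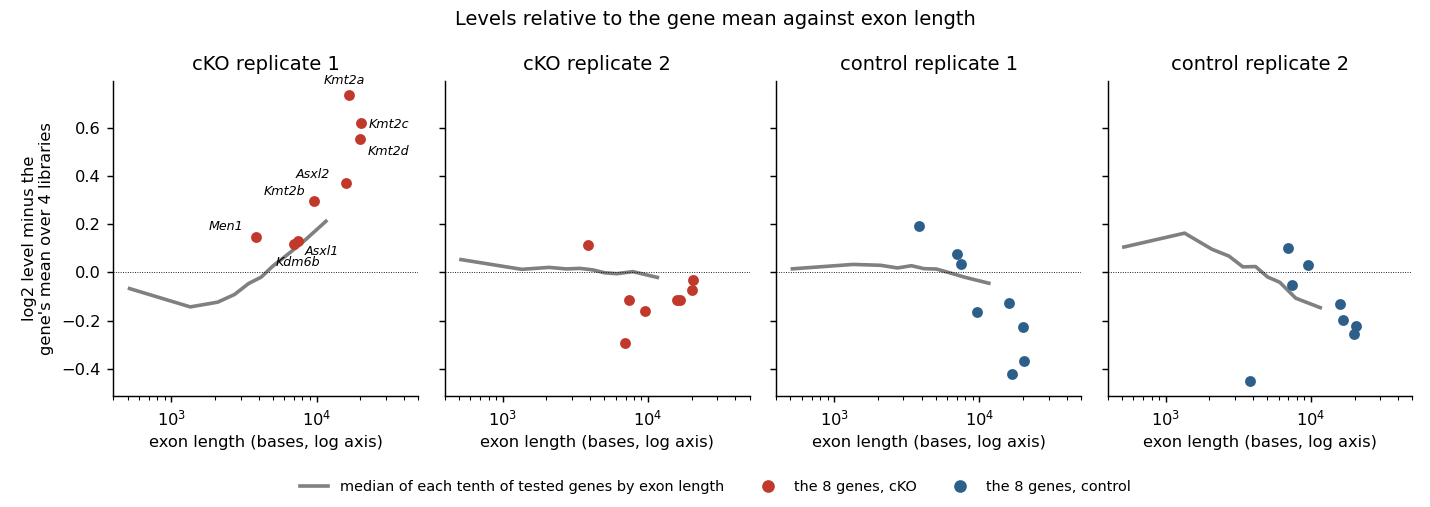
Log2 level minus the gene's mean over the 4 libraries (vertical axis) against exon length in bases (log axis), 1 panel per library, with a grey line through the medians of 10 length classes of all tested genes and points for the 8 genes. The line climbs with length in cKO replicate 1, to 0.21 in the longest class, and descends in control replicate 2, to -0.15, and the longest of the 8 genes lie above it in cKO replicate 1.

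With the length trend removed within each library, the differences of the long genes shrank. This left log2 fold changes of 0.36 for Kmt2a, 0.29 for Kmt2c, 0.19 for Kmt2d, 0.01 for Asxl2 and 0.28 for Men1, the shortest of the 8. Kmt2b had -0.01, Asxl1 -0.08 and Kdm6b -0.26. The smallest adjusted p of the 8 was then 0.80 (limma with Benjamini-Hochberg), for Kmt2a and Kmt2c, and the median over the 8 genes was 0.10. After this step both cKO libraries still lay above both controls for Kmt2c and Kmt2d, but by little in cKO replicate 2. Relative to the gene's mean, Kmt2c lay at 0.003 in cKO replicate 2 and at -0.034 in control replicate 2. For Kmt2d these values were -0.039 and -0.070. The groups no longer lay apart for Kmt2a, where control replicate 2 lay above cKO replicate 2, or for Asxl2. The share of all genes whose groups lay apart after this step was not computed.

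Per kilobase of exon, the order of the 8 genes was nearly the same in every library. Asxl1 (740 and 625 normalized counts per kilobase in the cKO libraries, against 692 and 652 in the control libraries) and Men1 (702 and 688, against 725 and 464) were at the top, and their order changed between libraries, so they did not differ beyond their spread. Kmt2b followed, at 625 and 455 in the cKO libraries and 454 and 519 in the control libraries, above Men1 in control replicate 2 alone. Kmt2d (588 and 381, against 343 and 336) and then Kmt2a (498 and 277, against 224 and 261) held the fourth and the fifth place in all 4 libraries. Kmt2c (288 and 183, against 145 and 160), Asxl2 (244 and 175, against 174 and 173) and Kdm6b (220 and 166, against 214 and 218) were lowest, and Kdm6b was last in both cKO libraries and sixth in both control libraries. With the longest transcript as the length in place of the exon union, Asxl2 stood above Kmt2a in control replicate 1, Men1 above Asxl1 in cKO replicate 1 and above Kmt2b in control replicate 2, and Kdm6b seventh in both control libraries.

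Within a library, levels per kilobase can be set against each other free of depth, and 8 ratios between partners were computed. They were picked after their values were seen and share genes, so they are given as a description, and none could reach an exact permutation p below 0.33. Kmt2a to Kmt2b was 0.796 and 0.607 in the cKO libraries and 0.493 and 0.503 in the control libraries. Kmt2c to Kmt2d, the enhancer pair, was 0.489 and 0.480 in the cKO libraries, against 0.423 and 0.478 in the control libraries, so cKO replicate 2 lay at the level of control replicate 2. The exon unions of this pair are near in length, at 20.3 and 19.9 kb. Their longest transcripts, at 14967 and 19823 bases, are not, so the size of this ratio depends on the length used. Asxl1 to Asxl2 was 3.03 and 3.57 in the cKO libraries, against 3.99 and 3.78 in the control libraries. In the Kmt2a and Kmt2b pair and in the Asxl pair, the longer gene was lower per kilobase than its partner in every library. Its level relative to the partner was higher in the cKO libraries than in the control libraries. Asxl2 to Bap1 (0.283 and 0.216, against 0.212 and 0.187) did not overlap either, with cKO replicate 2 little above control replicate 1. Kmt2d to Kdm6a (1.33 and 1.11, against 1.68 and 1.57) did not overlap, but Kdm6a is X-linked, so this ratio cannot be told apart from a difference of sex. The share of all gene pairs whose ratios do not overlap was not computed. Kmt2a to Men1 overlapped, at 0.709 and 0.402 against 0.308 and 0.563. Asxl1 to Bap1 overlapped too, at 0.857 and 0.771 against 0.844 and 0.706. Bap1 itself, the catalytic partner of the ASXL proteins, had 4044 and 3795 normalized counts in the cKO libraries and 3840 and 4327 in the control libraries (log2 fold change -0.06, SE 0.18).

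The ratio with the clearest gap was that of the H3K27 demethylase genes. Kdm6a to Kdm6b per kilobase was 2.01 and 2.08 in the cKO libraries and 0.956 and 0.980 in the control libraries, 2.11-fold apart. Kdm6a, an X-linked gene that escapes X inactivation and whose product sits in KMT2C and KMT2D complexes, had 3715 and 2888 normalized counts in the cKO libraries, against 1715 and 1791 in the control libraries. Its log2 fold change was 0.90 (SE 0.20; limma with Benjamini-Hochberg adjusted p = 0.66), and DESeq2 on the recovered reads called it (adjusted p = 0.027), as no other alternative that tested it did (adjusted p of 0.080 or above; it was not tested where X and Y genes were left out). Its Y-linked relative Uty had 0 reads in both cKO libraries, against 769 and 821 normalized counts in the control libraries, at least 229-fold lower against a floor of 3 reads per library. The sum of Kdm6a and Uty was 3715 and 2888 normalized counts in the cKO libraries, against 2484 and 2612 in the control libraries. As the cKO libraries carry Xist and no Y transcripts, the Kdm6a and Uty values, and the ratios with Kdm6a, cannot be told apart from a difference of sex.

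**Figure D4:**
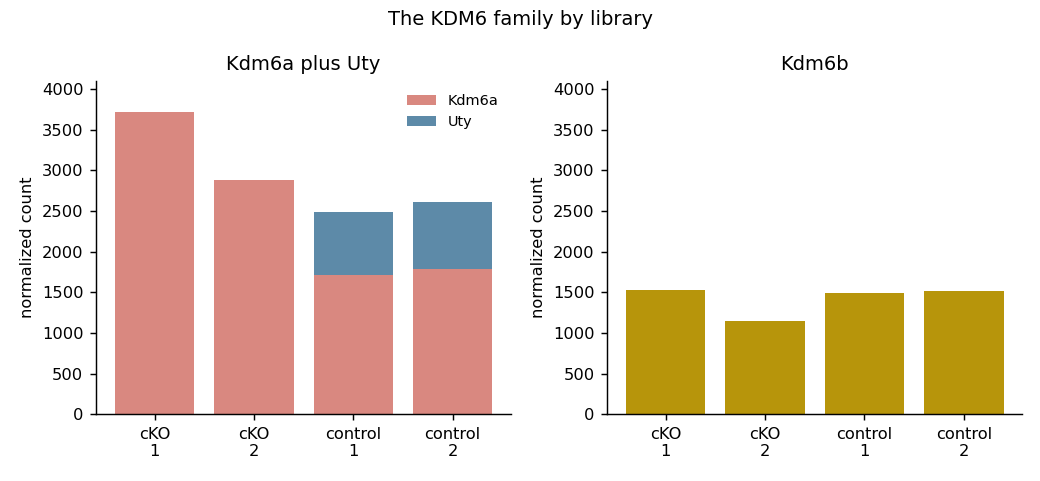
Normalized counts (vertical axes from 0) of Kdm6a with Uty stacked on it (left panel) and of Kdm6b (right panel) in the 4 libraries. Kdm6a is higher in both cKO libraries (3715 and 2888) than in the control libraries (1715 and 1791), Uty is present in the control libraries alone, and Kdm6b is lowest in cKO replicate 2 (1155).

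Other subunits of the H3K4 methyltransferase complexes had values on both sides of 0. A list of 13 genes held those of the shared core and the SETD1 complexes, and Kmt2e, which was listed with them. None of the 13 passed the test (limma, 2 with an unadjusted p under 0.05, Kmt2e and Bod1l), 8 had a log2 fold change above 0, and the median was 0.10. The core subunits common to every MLL complex, Wdr5 (5211 and 5274 normalized counts in the cKO libraries, against 5904 and 6490 in the control libraries), Ash2l, Rbbp5 and Dpy30, had log2 fold changes from -0.24 to 0.16. Kmt2e, which encodes a distant MLL relative, had 5905 and 3607 normalized counts in the cKO libraries, against 3255 and 2503 in the control libraries (0.69, SE 0.27), and Bod1l, a large SETD1A-associated protein gene, had 4162 and 2967, against 2582 and 2226 (0.55, SE 0.22). Setd1b had 0.33 (SE 0.24). Kmt2e, Bod1l and Setd1b, at 10444 to 12068 bases of exon, fell in the longest length class, where the median log2 fold change was 0.19. Wdr5, Ash2l, Rbbp5 and Dpy30 were shorter, at 1146 to 8969 bases. The part of length in these values was not tested.

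Partners of the KMT2A and KMT2B complexes and of elongation complexes gave 7 of 12 genes above 0, a median of 0.04 and no gene past the test (limma, 1 with an unadjusted p under 0.05). Among them, Aff4, an elongation scaffold, had 0.68 (SE 0.28), Ccnt1, the cyclin of the elongation kinase, 0.41 (SE 0.18), and Cdk9, the kinase itself, -0.51 (SE 0.23). Aff4 fell in the longest length class, as did Aff1 (0.45), Mllt3 (-0.07) and Ell2 (-0.43), and Cdk9 was shorter, at 4611 bases. Of the 4 tested KMT2C and KMT2D partners, 1 passed, the Y gene Uty, and Paxip1, an adaptor of these complexes, had -0.10 (SE 0.19). The ASXL and BAP1 partners had 3 of 8 genes above 0, a median of -0.03 and none past the test (limma, 0 with an unadjusted p under 0.05). Among them were Mbd6, a BAP1 complex subunit (-0.26, SE 0.19), Mbd5 (0.25, SE 0.25) and Foxk1, a DNA-binding partner (0.32, SE 0.24).

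**Figure D5:**
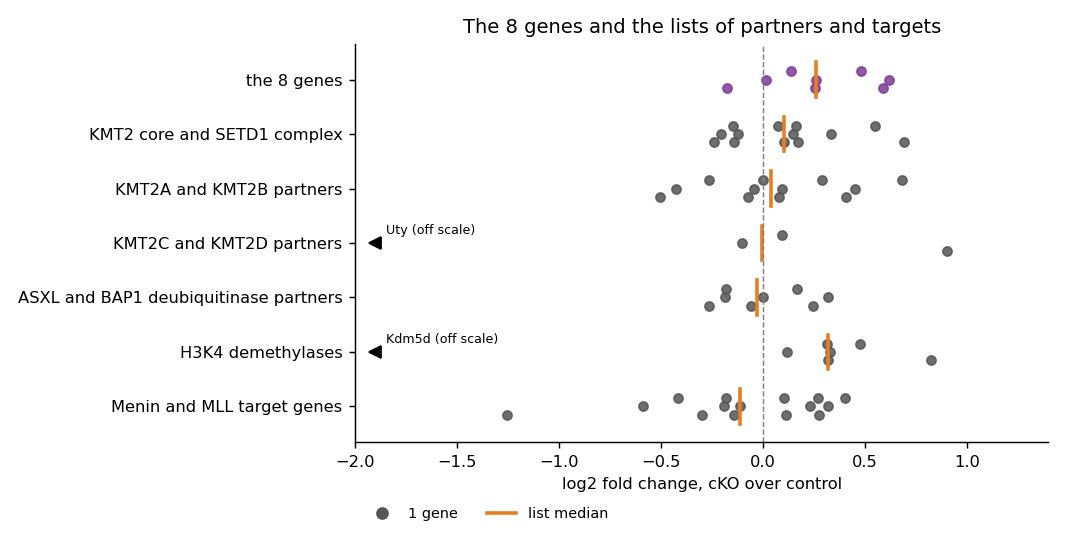
Log2 fold change, cKO over control (horizontal axis), of each tested gene of the 8 and of 6 lists of partners, antagonists and targets, with an orange bar at each list's median. The 8 genes have a median of 0.26 and the menin and MLL targets one of -0.11, and the Y genes Uty and Kdm5d, which had 0 reads in both cKO libraries, lie off the scale to the left.

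Demethylases of H3K4, which remove the mark that MLL enzymes place, were listed with related demethylases. Of these, 6 of 7 genes lay above 0, with a median of 0.32. Kdm1b, another H3K4 demethylase gene, was listed with the ASXL and BAP1 partners and had -0.18 (SE 0.25). Kdm2a, Kdm2b, Kdm5a and Kdm5b fell in the longest class by exon length, where the median was 0.19. The part of length in this list was not tested. The seventh gene of the list, the Y gene Kdm5d, was the only one to pass, at 0 reads in both cKO libraries. Kdm5c, its X-linked relative that escapes X inactivation, had 6496 and 5410 normalized counts in the cKO libraries, against 4070 and 2763 in the control libraries (0.82, SE 0.24). Kdm5b had 0.47 (SE 0.20).

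Target genes of menin and MLL had values on both sides of 0. The median over 15 genes was -0.11, with 7 log2 fold changes above 0 and 8 under it, and none passed the test (limma, 1 with an unadjusted p under 0.05). Hoxa9, the homeobox gene most tied to KMT2A in blood, had 1170 and 1420 normalized counts in the cKO libraries, against 1245 and 1739 in the control libraries (-0.19, SE 0.24), and the groups overlapped. Cdkn2c, a cell cycle inhibitor gene that menin maintains in endocrine cells, had 1501 and 1650 normalized counts in the cKO libraries, against 2292 and 2448 in the control libraries (-0.59, SE 0.19; limma with Benjamini-Hochberg adjusted p = 0.76). Mef2c, a transcription factor gene, had 0.40 (SE 0.19).

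The genes whose pattern over the 4 libraries was most like the mean of the 8 were Dgkq, Rai1 and Rnf214. Likeness was the root mean square distance between log2 levels centred on each gene's mean, 0.016, 0.019 and 0.022, among 8904 other genes with a mean of at least 500, and with 4 libraries many genes lie close. Dgkq, for instance, had 765 and 537 normalized counts in the cKO libraries, against 529 and 524 in the control libraries.

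Markers of cell types were set beside these values, and no listed marker that was measured was at 0 in any library. In 8 of 10 T and NK cell markers both cKO libraries lay above both controls, against a background of 19.2% of tested genes. Their summed level was 8586 to 9084 normalized counts in the cKO libraries and 5805 to 9101 in the control libraries, most of it Nkg7. In 4 of 6 stromal and bone markers both cKO libraries lay below both controls, against a background of 19.5%. The sums were 4724 to 9211 in the cKO libraries and 19969 to 21076 in the control libraries. All 6 erythroid markers had a log2 fold change below 0 with overlapping groups, and sums of 6385 to 28513 in the cKO libraries and 19610 to 65902 in the control libraries. The 10 Lin– progenitor markers, such as Kit, Cd34 and Flt3, were present in every library (sums of 323878 to 338993 in the cKO libraries and of 147795 to 417885 in the control libraries). Most of each sum was Mpo, at 247093 and 263946 normalized counts in the cKO libraries, against 343617 and 82908 in the control libraries. In 4 of the 10, Kit, Cd34, Flt3 and Ly6a, both cKO libraries lay above both controls, against a background of 19.2%, and none had both below. The 5 B cell, 5 eosinophil and 6 endothelial markers had 1, 2 and 3 genes with both cKO libraries above both controls, against the same background of 19.2%, and the B cell count is near that share. In bulk RNA, fewer cells of a type and less RNA per cell cannot be told apart, and the part of cell composition in the levels of the 8 genes was not tested.

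In GENCODE M21, 5 of the 8 genes share exon bases with a gene on the other strand, namely Kmt2a, Kmt2c, Asxl1, Asxl2 and Kdm6b. The shared bases were 0.972% to 4.11% of the exons, and since the strand setting of the counting is not given, reads there cannot be assigned to either gene. The partners in the table were low beside the 8 genes. Kdm6bos, opposite Kdm6b, had 15.2 and 17.2 normalized counts in the cKO libraries and 23.1 and 16.0 in the control libraries.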

How the data were processed

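Gene-level RNA-seq values were used for 2 cKO and 2 control libraries. The authors deposited a signal per gene and library, reads counted to genes and scaled by 1 size factor per library (DESeq2 normalized counts), per the file headers. STAR 2.7.9a, Trim Galore 0.6.7, featureCounts, DESeq2 and SAMtools are named with build mm39, per the submitters' processing notes. Nothing on settings, strand, annotation or gene filter is given in the sources used here. This table calls its control columns WT, and they were matched to the control samples by group and number. All values were whole multiples of 1 read within 0.1 read (100% of values), so reads could be recovered. They summed to 28845037 and 30020188 in cKO replicates 1 and 2 and to 39199593 and 46673855 in control replicates 1 and 2.

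The log2(normalized count + 1) values were fitted with limma 3.58.1 in R 4.3.3 (empirical Bayes, variance trend), two-sided and Benjamini-Hochberg adjusted over all 16598 genes with a mean of at least 10 of the 16673 in the table, threshold 0.05. Alternatives took pseudocounts of 0.5 and 10, no filter, a mean of at least 50, TMM, quantile normalization, no trend, a replicate block, X and Y genes left out, each library left out, and edgeR 4.0.16 (12 genes called) and DESeq2 1.42.0 (112) on the recovered reads. Removing an exon length trend (lowess per library, span 0.3) was added after seeing the data. The steps were tested on simulated data. Exon lengths are unions of exons in GENCODE M21 (GRCm38, another build than that of the reads), matched by symbol for 97.3% of tested genes.

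The 8 genes, the lists and the tests were chosen with earlier results of these data known, and the ratios after their values were seen. Named beside the 8 genes are up to 3 tested genes with the smallest unadjusted p of each list, Kdm6a, Uty, Bap1 and Hoxa9. One gene that this rule names is not reported here by name. Xist, Tet3, other list members given by their levels and single genes named as exceptions were chosen outside that rule.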

Additional observations from a re-analysis of the deposited data

How the results depend on the processing

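None of the 8 genes passed the test under any of the 16 alternatives (limma, edgeR or DESeq2), where the smallest adjusted p was 0.12, for Men1 without control replicate 1 (limma with Benjamini-Hochberg adjustment). Their median log2 fold change, 0.26, lay between 0.09 and 0.43 when single libraries were left out, the lowest without cKO replicate 1, and was 0.10 with the exon length trend removed. Single genes turned in sign when 1 library was left out. Men1 had -0.061 when control replicate 2 was left out and 0.58 without control replicate 1, and Kmt2b ranged from -0.093 without cKO replicate 1 to 0.37 without cKO replicate 2. Asxl1 ranged from -0.10 without cKO replicate 1 to 0.14 without cKO replicate 2 (-0.025 without control replicate 2), and Kdm6b from -0.38 without cKO replicate 1 to 0.028 without cKO replicate 2. With the length trend removed Kmt2b had -0.013 and Asxl1 -0.084. The number of genes called, 12, was 2 with X and Y genes left out and 112 with DESeq2 on the recovered reads. With 1 library left out it ran from 10 to 393, the highest without control replicate 1, and the lone library of a group is then assumed to vary like the other group. The cause was not tested. With the replicate number as a block, 8 genes were called, none of them among the 8 described here. The labels do not say that a number pairs mice, and the correlation of same-numbered deviations was -0.074. Each of the 8 genes had at least 1005 reads in every library, and counting error was not compared with the spread between mice.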
